A study of Mus musculus with 8 samples.

Results

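The B-lineage transcription factors described here are *Pax5*, *Ebf1*, *Ikzf1*, *Ikzf3*, *Bach2*, *Bcl6*, *Spib*, *Spi1* (also named *Sfpi1*), *Irf8* and *Pou2af1*. They were chosen by name, with earlier results of these data known, and all 10 were among the 10783 genes of the deposited table. Testing was limited to 10627 genes that reached 10 normalized counts (reads divided by a size factor of the library) in 2 or more libraries, and all 10 factors were among them. RNA was sequenced from B-1a cells sorted from the spleen of mice 2 to 3 months old, a self-renewing B-cell subset that arises mainly in fetal life and secretes natural IgM. The groups were 3 libraries of IgMneg B-1a cells from CKO mice (numbers 1, 2 and 3), 2 libraries of IgMhi B-1a cells from CKO mice (numbers 2 and 3) and 3 libraries of IgMhi B-1a cells from control mice (numbers 1, 2 and 3). CKO mice carry *Ctla4* fl/fl with 1 allele of a Cre that is active in B cells, so that the gene for the inhibitory receptor CTLA-4 is deleted in B cells. Control mice are described in the methods as *Ctla4* +/+ with the same Cre allele, although their label reads wild type. The background of all mice is given as Balb/c, although the methods state no repeated crossing of the Cre line to it. By the methods, then, all 3 groups carry the Cre. IgMneg B-1a cells are the CKO B-1a cells without IgM on their surface, and no IgMneg library of control mice was analysed, so the sort was compared only within CKO mice.

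B-cell identity is held by a small set of nuclear proteins. EBF1 opens chromatin at B-cell genes and, with E2A proteins, turns on *Pax5*. PAX5 then activates genes of the B-cell receptor complex and represses genes of other lineages. Ikaros (*Ikzf1*) and Aiolos (*Ikzf3*) are related zinc finger proteins that recruit the NuRD repressor complex and restrain signaling of B-cell precursors. BACH2 pairs with small MAF proteins and, like BCL6, represses *Prdm1*, the driver of plasma cell fate. PU.1 (*Spi1*) and SPI-B (*Spib*) are ETS family activators, and IRF8 binds DNA together with PU.1. OBF-1 (*Pou2af1*) is a coactivator of the octamer-binding proteins OCT1 (*Pou2f1*) and OCT2 (*Pou2f2*).

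The factors that moved together below are shown with the 250 bases before 1 of their RefSeq start sites (GRCm38.p6). *Bach2*, *Ikzf1*, *Ebf1* and *Pax5* were lower in IgMneg than in CKO IgMhi B-1a cells, and *Spib*, which did not pass the test, is given for comparison. The transcribed strand is written 5′ to 3′, and *Ikzf1* and *Ebf1* are shown at the upstream of their 2 listed starts. No window was read for *Ikzf3*. Capitals mark matches, on either strand, to AANNGAAA (the core bound by IRF proteins), CCCNNGGG (facing EBF1 sites), TGGGAA (Ikaros), CAGGTG (E2A), GAGGAAGT (PU.1 and SPI-B), CCGGAAGT (other ETS proteins), ATGCAAAT (the octamer) and TGACTCA (the core bound by AP-1 and BACH2).
*Bach2*, chr4:32417185-32417434 on the plus strand: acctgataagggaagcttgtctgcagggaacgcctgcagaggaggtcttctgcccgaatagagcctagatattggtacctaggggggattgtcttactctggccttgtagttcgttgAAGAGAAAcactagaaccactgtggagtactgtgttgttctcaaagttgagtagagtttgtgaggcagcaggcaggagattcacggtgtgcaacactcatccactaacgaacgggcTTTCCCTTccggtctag
*Ikzf1*, chr11:11685675-11685924 on the plus strand: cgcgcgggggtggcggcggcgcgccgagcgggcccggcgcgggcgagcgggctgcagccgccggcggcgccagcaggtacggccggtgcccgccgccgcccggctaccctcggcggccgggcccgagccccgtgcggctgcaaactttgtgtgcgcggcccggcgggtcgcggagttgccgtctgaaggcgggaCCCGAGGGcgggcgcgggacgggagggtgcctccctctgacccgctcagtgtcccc
*Ebf1*, chr11:44617850-44618099 on the plus strand: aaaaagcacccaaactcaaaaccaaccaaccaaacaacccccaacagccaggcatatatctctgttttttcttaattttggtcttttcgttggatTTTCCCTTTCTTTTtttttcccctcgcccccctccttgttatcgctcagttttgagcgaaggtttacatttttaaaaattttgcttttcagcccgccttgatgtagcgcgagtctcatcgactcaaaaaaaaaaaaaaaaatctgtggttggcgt
*Pax5*, chr4:44710695-44710944 on the minus strand: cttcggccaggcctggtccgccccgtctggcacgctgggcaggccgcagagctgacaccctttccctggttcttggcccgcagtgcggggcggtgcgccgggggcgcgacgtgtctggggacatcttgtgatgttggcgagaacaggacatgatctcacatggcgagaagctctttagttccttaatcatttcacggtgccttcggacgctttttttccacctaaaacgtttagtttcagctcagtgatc
*Spib*, chr7:44532072-44532321 on the minus strand: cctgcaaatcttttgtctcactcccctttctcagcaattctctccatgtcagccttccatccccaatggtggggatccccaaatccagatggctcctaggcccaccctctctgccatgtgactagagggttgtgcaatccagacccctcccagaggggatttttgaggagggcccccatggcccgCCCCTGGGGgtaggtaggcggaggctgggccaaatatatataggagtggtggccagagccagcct

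The *Bach2* window held 2 IRF matches, the *Ebf1* window 2 IRF matches that overlap each other, the *Ikzf1* window 1 EBF1 match, and the *Spib* window 2 EBF1 matches that overlap each other. The *Pax5* window held none of the 8 motifs. Among all 32851 RefSeq windows of this length, 21.3% held the IRF letters and 11.8% the EBF1 letters. Over the 12 windows of the 8 factors that have 1, 4 held the IRF letters, 2 the EBF1 letters, 2 the Ikaros letters (in 21.6% of all windows) and 1 the E2A letters (in 17.2%). The ETS letters, the octamer and the BACH2 core were in 0 of the 12, and in 2.44% (GAGGAAGT), 2.88% (CCGGAAGT), 1.60% (octamer) and 4.46% (TGACTCA) of all windows. These matches describe the letters only. The windows also differ in base composition, with a GC content of 82.0% for *Ikzf1*, 58.8% for *Pax5*, 58.0% for *Spib*, 50.4% for *Bach2* and 40.0% for *Ebf1*, and a median over all windows of 52.4%.

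Reads in genes were 5279044 to 9639495 in IgMneg, 6626127 and 7952315 in CKO IgMhi, and 2514224, 1404660 and 10289686 in control libraries 1, 2 and 3, so 2 controls were shallow. The ribosomal RNA precursor *Rn45s* took 7.53% to 8.48% of reads in IgMneg, 9.04% and 11.6% in CKO IgMhi, and 17.3%, 25.1% and 4.62% in control libraries 1, 2 and 3, so the shallow controls also held the most of it. The B-cell and B-1a markers of a list of 13 (12 measured) summed to overlapping normalized counts in IgMneg and both IgMhi groups. The sums were 25490 to 28090 in IgMneg, 25710 to 28450 in CKO IgMhi and 26870 to 29360 in control libraries. *Ms4a1*, a gene of B cells in general, weighed most in them, with a mean of 12710, so the sums say little of the less abundant markers. Within the list 3 genes were called in IgMneg over CKO IgMhi cells, *Spn*, which encodes CD43 (log2 fold change 0.85, limma adjusted p = 0.0268), *Cd79a*, described below, and *Bhlhe41*, which encodes a repressor needed by B-1a cells (-0.73, 0.0196). *Ctla4*, counted over the whole gene and so not a check of the deletion, had 48.5, 73.8 and 33.0 normalized counts in IgMneg, 36.2 and 28.5 in CKO IgMhi, and 42.2, 43.1 and 76.8 in control libraries. Of 14 T-cell markers, 5 were measured, and they summed to 905 to 1109 normalized counts in IgMneg, 404 to 544 in CKO IgMhi and 412 to 450 in control libraries, most of it *Lck*, which B-1a cells also use. IgMneg libraries 1 and 3 stood apart in some genes of B-cell precursors. *Igll1*, a surrogate light chain gene and a target of EBF1, had 59.2, 0 and 50.3 normalized counts in IgMneg libraries 1, 2 and 3, and 0 reads in each of the 5 IgMhi libraries. Results that rest on the libraries concerned are given with and without them below.

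Levels per kilobase of exon, which allow a rough comparison between genes, spread widely among the factors. The length is that of all annotated exons of a gene merged, which can differ from the transcripts expressed or counted, so close ranks are uncertain. *Pou2af1* and *Spib* stood highest, at 1183 ± 75.4 and 979 ± 111 normalized counts per kilobase in IgMneg cells (SD, n = 3), 1264 ± 36.2 and 1019 ± 13 in CKO IgMhi cells (SD, n = 2), and 1391 ± 164 and 1036 ± 147 in control cells (SD, n = 3). *Ikzf1* came next in each group, at 301 ± 12.1 in IgMneg, 484 ± 21.0 in CKO IgMhi and 373 ± 10.7 in control cells on the same scale. The libraries of these 3 genes did not overlap in any group. *Pax5*, *Ikzf3* and *Irf8* filled the next places in an order that changed with the group. *Irf8* and *Pax5* overlapped in IgMneg cells (means of 176 and 168 per kilobase), *Ikzf3* and *Pax5* in CKO IgMhi cells (262 and 248) and *Pax5* and *Ikzf3* in control cells (229.9 and 194), where *Irf8* and *Spi1* (147 and 111) overlapped too. *Spi1* and *Ebf1* followed, at 86.4 and 60.7 per kilobase in IgMneg cells, and their libraries overlapped in CKO IgMhi and control cells. *Bach2* stood at 23.3 ± 1.14 per kilobase in IgMneg, 41.0 ± 1.22 in CKO IgMhi and 22.3 ± 5.56 in control cells. *Bcl6*, best known from germinal center B cells, was lowest in each group, at 3.41, 5.64 and 5.34 per kilobase in IgMneg, CKO IgMhi and control cells, from 7 to 102 reads per library.

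**Figure D1:**
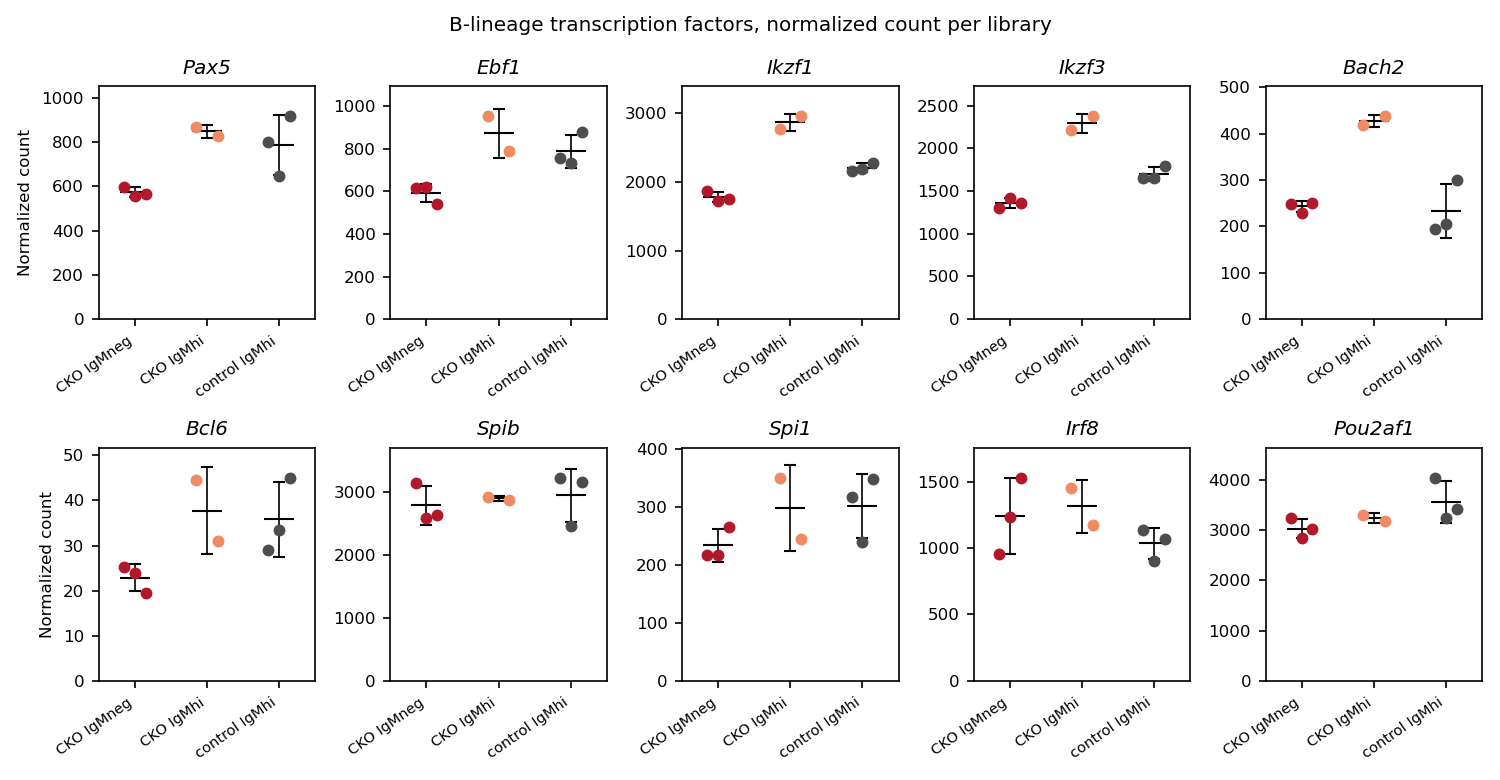
Normalized count (y axis, from 0) of each factor in each library, with 1 panel per gene and points for single libraries of CKO IgMneg, CKO IgMhi and control IgMhi B-1a cells. Bars give the mean and SD of n = 3, 2 and 3 libraries; in *Ikzf1* and *Ikzf3* the 3 groups do not overlap, with IgMneg lowest and CKO IgMhi highest.

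The first comparison set IgMneg against IgMhi B-1a cells of CKO mice, 2 sorts that share the mice numbered 2 and 3. *Ikzf3*, *Ikzf1*, *Bach2*, *Ebf1* and *Pax5* were lower in IgMneg cells, with folds of 0.592, 0.622, 0.569, 0.682 and 0.677, while *Bcl6*, *Spi1*, *Irf8*, *Pou2af1* and *Spib* did not pass the test. Thus 5 of 10 factors were called lower and 0 higher (limma, adjusted p under 0.05), against 5.75% of the 10627 genes called lower, 1.78% called higher and 7.53% in either direction. All 10 log2 fold changes were negative, with a median of -0.56, against 0.01 over all genes. Because the factors were chosen with earlier results of these data known, this contrast with all genes is a description. Counts are per bulk RNA, so fewer cells that express a gene and less RNA per cell cannot be told apart.

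*Ikzf3*, which encodes Aiolos, had 1298, 1417 and 1357 normalized counts in IgMneg libraries 1, 2 and 3, against 2212 and 2373 in CKO IgMhi libraries 2 and 3, and 1652, 1647 and 1798 in the controls. The 3 groups did not overlap, and each CKO IgMhi library lay above every other library. The log2 fold change of IgMneg over CKO IgMhi was -0.76 (95% interval -1.05 to -0.46, limma adjusted p = 0.00439). *Ikzf1*, which encodes Ikaros, had 1862, 1727 and 1755 normalized counts in IgMneg, 2778 and 2954 in CKO IgMhi, and 2156, 2183 and 2277 in control libraries. Its groups were ordered in the same way with no overlap. The share of all genes whose groups are separated in this way was not computed, here or in the comparisons below. The log2 fold change was -0.69 (95% interval -0.98 to -0.39, limma adjusted p = 0.00756).

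*Bach2* had 249, 229.5 and 251 normalized counts in IgMneg libraries, against 419 and 437 in CKO IgMhi libraries and 193, 206 and 299.5 in the controls. IgMneg libraries lay within the range of the controls, and both CKO IgMhi libraries lay above all others. The log2 fold change of IgMneg over CKO IgMhi was -0.81 (95% interval -1.23 to -0.40, limma adjusted p = 0.0199). *Ebf1* had 617, 619 and 542 normalized counts in IgMneg, 952 and 791 in CKO IgMhi, and 756, 732.5 and 876.5 in control libraries. Here the CKO IgMhi and control libraries overlapped and the IgMneg libraries lay below both. The log2 fold change was -0.55 (95% interval -0.88 to -0.23, limma adjusted p = 0.0368).

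*Pax5* followed the pattern of *Ebf1*, the factor upstream of it. It had 598, 557 and 567 normalized counts in IgMneg, 868 and 828 in CKO IgMhi, and 800.3, 646 and 915 in control libraries. All IgMneg libraries lay below all IgMhi libraries, and the controls spanned the CKO IgMhi values. The log2 fold change of IgMneg over CKO IgMhi was -0.56 (95% interval -0.90 to -0.22, limma adjusted p = 0.0412). Within the mice sampled in both sorts, the log2 ratio of IgMneg to IgMhi for these 5 genes ran from -0.87 (*Bach2*) to -0.62 (*Ebf1*) in mouse 2 and from -0.81 (*Ikzf3*) to -0.54 (*Ebf1*) in mouse 3, so each of the 5 was lower in both mice.

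The 5 other factors gave smaller or less even differences. *Bcl6* had 25.2, 23.8 and 19.6 normalized counts in IgMneg, 44.5 and 31.0 in CKO IgMhi, and 28.9, 33.5 and 45.0 in control libraries. All IgMneg libraries lay below all IgMhi libraries. Over CKO IgMhi cells the log2 fold change of -0.69 had a 95% interval of -1.54 to 0.17 (limma adjusted p = 0.319). *Spi1* had 217, 217 and 265 normalized counts in IgMneg, 349 and 245 in CKO IgMhi, and 316, 239 and 347 in control libraries. The 3 groups overlapped, and the log2 ratio within mice was -0.69 in mouse 2 and 0.11 in mouse 3. *Irf8*, the partner of PU.1, was as uneven, with 952, 1235 and 1527 normalized counts in IgMneg, 1453 and 1172 in CKO IgMhi, and 1132, 905 and 1068 in control libraries. Its log2 ratio within mice was -0.23 in mouse 2 and 0.38 in mouse 3.

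*Pou2af1* and *Spib*, the factors of highest level, had differences near 0 between the sorts. *Pou2af1* had 3235, 2849 and 3021 normalized counts in IgMneg, 3308 and 3177 in CKO IgMhi, and 4044, 3241 and 3425 in control libraries. The log2 fold change of IgMneg over CKO IgMhi was -0.10 (95% interval -0.42 to 0.23, limma adjusted p = 0.749). *Spib* had 3144, 2577 and 2625 normalized counts in IgMneg, 2921 and 2869 in CKO IgMhi, and 3217, 2461 and 3147 in control libraries. Its log2 fold change was -0.06 (95% interval -0.41 to 0.28, limma adjusted p = 0.858).

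**Figure D2:**
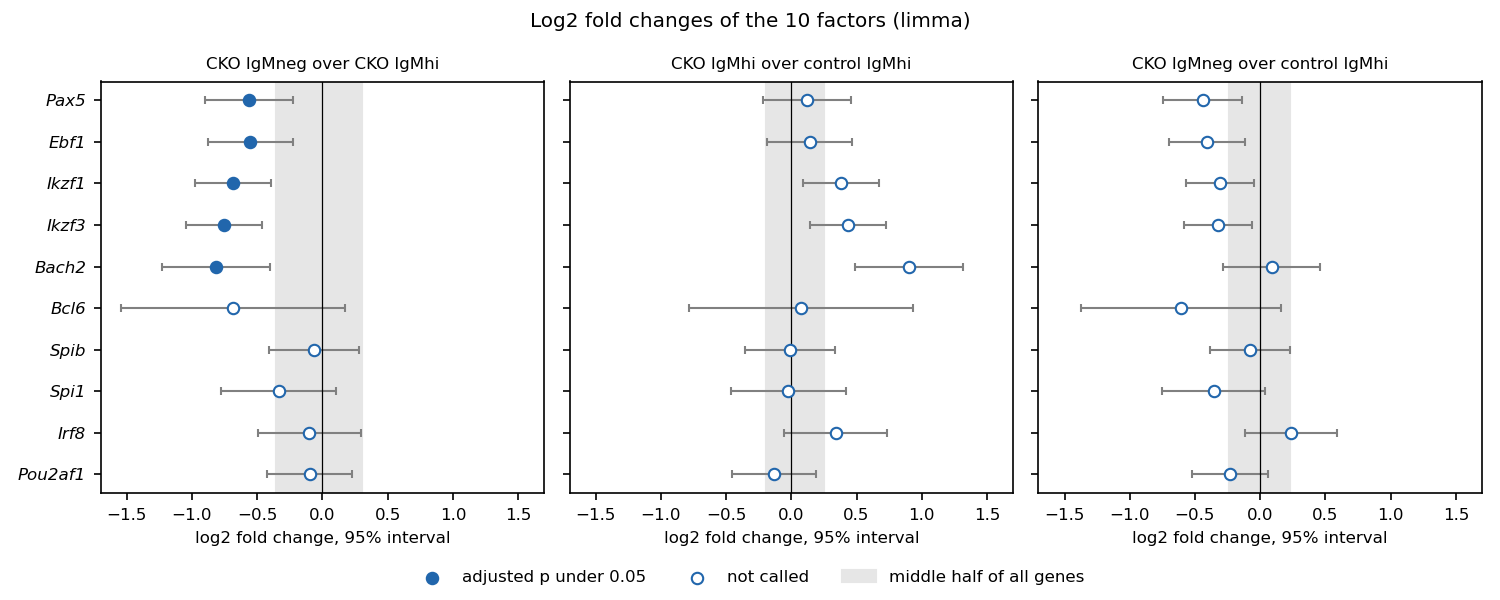
Log2 fold change (x axis) of each factor in the 3 comparisons, with 95% intervals from limma; filled points have an adjusted p under 0.05 and the grey band spans the middle 50 percent of all genes. The 5 filled points, *Pax5*, *Ebf1*, *Ikzf1*, *Ikzf3* and *Bach2*, all lie between -0.81 and -0.55 in the comparison of IgMneg with CKO IgMhi cells.

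The 5 calls depended on single libraries, above all in the CKO IgMhi group, which has 2. Without CKO IgMhi library 3 the count of called factors was 0 of 10, without CKO IgMhi library 2 it was 2, without IgMneg library 2 it was 2, without IgMneg library 3 or control library 1 it was 3. It was 2 with libraries scaled to their totals, and 0 in limma without a variance trend, a fit that called 0 of all genes. In all 26 settings the log2 fold change of each of the 5 stayed negative, with ranges of -0.85 to -0.46 for *Ikzf3*, -0.78 to -0.53 for *Ikzf1*, -0.91 to -0.46 for *Bach2*, -0.69 to -0.31 for *Ebf1* and -0.66 to -0.48 for *Pax5*. *Ikzf1* and *Ikzf3* were each called in 23 of the 26, *Bach2* in 19, *Pax5* in 16 and *Ebf1* in 15. edgeR and DESeq2 on the recovered reads each called the same 5 factors.

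**Figure D3:**
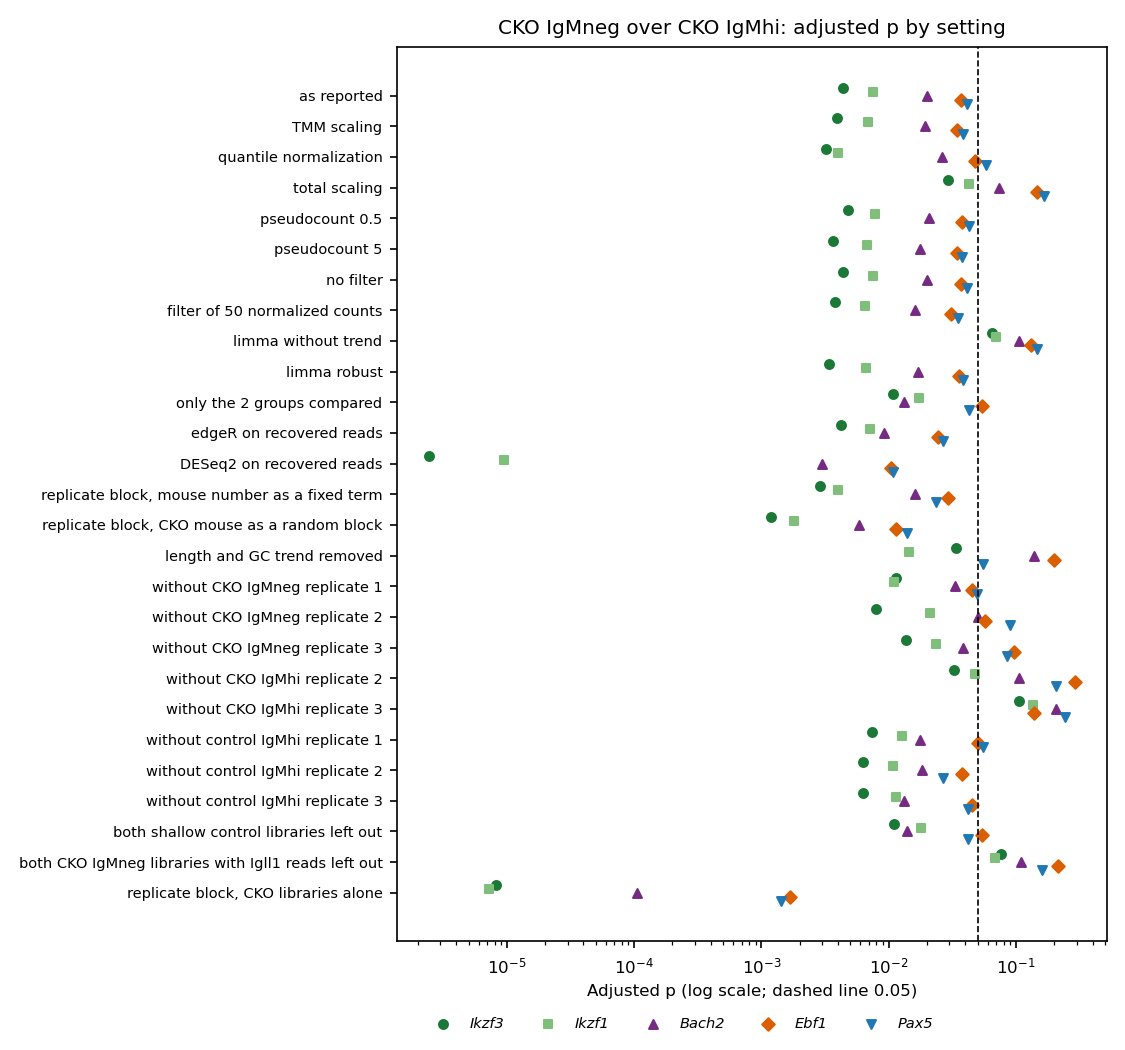
Adjusted p (x axis, log scale) of the 5 called factors for IgMneg over CKO IgMhi B-1a cells, as reported and in 26 other settings (rows), with the threshold of 0.05 as a dashed line. Without CKO IgMhi replicate 3 and in limma without trend, all 5 points lie to the right of the line.

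Gene length moved with this comparison, and less strongly with the others. Over 10421 genes, the log2 fold change of IgMneg over CKO IgMhi had a Spearman correlation of -0.39 with exon length, given as a description across genes that share libraries. The correlation was 0.30 in CKO IgMhi over control cells and -0.23 in IgMneg over control cells. *Bach2*, *Ebf1*, *Ikzf3* and *Ikzf1* have exon lengths of 10427, 9756, 8754 and 5919 bases, at the percentiles 96.0, 94.8, 92.3 and 77.8 of the genes, while *Pax5* has 3424 bases, at percentile 45.2. *Pou2af1*, *Spi1* and *Spib*, which were not called, have 2566 to 2840 bases. *Irf8* and *Bcl6*, also not called, are long too, with 7055 and 6700 bases. After removal of each library's dependence on length and GC content, *Ikzf1* (-0.53, adjusted p = 0.0145) and *Ikzf3* (-0.46, adjusted p = 0.0336) were still called by limma, and *Pax5* (-0.48, adjusted p = 0.055), *Bach2* (-0.46, adjusted p = 0.139) and *Ebf1* (-0.31, adjusted p = 0.201) were not.

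Some precursor genes were highest in IgMneg libraries 1 and 3, with low counts in IgMneg library 2. Like *Igll1*, the surrogate light chain gene *Vpreb1* had 72.7, 3.97 and 25.1 normalized counts in IgMneg libraries 1, 2 and 3, against 0 in both CKO IgMhi libraries and at most 1.76 in the controls. The recombinase gene *Rag1* had 60.1, 1.59 and 26.3 in IgMneg, against 0 in both CKO IgMhi libraries and at most 0.441 in the controls. *Dntt*, the terminal transferase gene, was chosen after its values were seen and had 210.5, 4.76 and 82.2 in IgMneg libraries and at most 0.882 in any IgMhi library. *Vpreb3*, on the list of activated targets described below, did not follow them. It had 84.4, 93.7 and 172.7 normalized counts in IgMneg, 171.3 and 107.6 in CKO IgMhi, and 186.7, 143.6 and 162.3 in control libraries. None of *Igll1*, *Vpreb1* and *Rag1* passed the test (limma adjusted p = 0.207, 0.0706 and 0.133). With libraries 1 and 3 left out, a choice made after the data were seen, IgMneg library 2 alone gave log2 fold changes of -0.69 for *Ikzf3*, -0.73 for *Ikzf1*, -0.90 for *Bach2*, -0.49 for *Ebf1* and -0.61 for *Pax5* over CKO IgMhi cells, with 0 of 10 factors called in that smaller fit. IgMneg library 2 had 0 *Igll1* reads but, as given, low counts of *Vpreb1*, *Rag1* and *Dntt*, and the part of precursor cells in the decreases was not tested. *Cd3g*, a subunit of the T-cell receptor complex, was higher in IgMneg cells, with 184, 221 and 230.2 normalized counts against 45.3 and 53.2 in CKO IgMhi and 73.4, 95.8 and 63.1 in control libraries (limma adjusted p = 0.000397 over CKO IgMhi). The part of T cells in the results for *Ikzf1* and *Ikzf3*, which T cells also express, was not tested.

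The second comparison set IgMhi B-1a cells of CKO mice against those of control mice, to ask what loss of CTLA-4 in B cells does to B-1a cells that keep surface IgM. None of the 10 factors was called (limma, 0 of 10, against 0.179% of all genes; edgeR called 0 and DESeq2 1). At an unadjusted p under 0.05, 3 were higher in CKO cells, *Bach2*, *Ikzf3* and *Ikzf1*, against 7.01% of all genes. The values of *Bach2* given above do not overlap between CKO IgMhi and control cells, with a log2 fold change of 0.90 (95% interval 0.49 to 1.32, limma adjusted p = 0.0761). *Bach2* passed in 2 of 25 settings, DESeq2 on the recovered reads (0.83, adjusted p = 0.0214, where 1.64% of genes with an adjusted p were called) and limma without control library 3 (1.10, adjusted p = 0.0229). Control library 3, the deepest, had the highest *Bach2* of the controls, and against it alone the log2 fold change was 0.51, a choice of libraries made after the data were seen.

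*Ikzf3* and *Ikzf1* also lay higher in both CKO IgMhi libraries than in any control, with log2 fold changes of 0.43 (95% interval 0.14 to 0.72, limma adjusted p = 0.249) and 0.38 (95% interval 0.09 to 0.67, limma adjusted p = 0.326). Both CKO IgMhi values of *Irf8* lay above the 3 controls, by a log2 fold change of 0.34 (95% interval -0.05 to 0.74, limma adjusted p = 0.594). How many of all genes are separated in this way was not computed. For *Pax5* and *Ebf1* the log2 fold changes were 0.12 and 0.14, with intervals of -0.22 to 0.46 and -0.18 to 0.47, and for *Bcl6* it was 0.08, with an interval of -0.78 to 0.93. *Spib*, *Spi1* and *Pou2af1* were at -0.01, -0.02 and -0.13, values whose sign turned when libraries were scaled to their totals. The median over the 10 factors was 0.13, against 0.00379 over all genes. The low depth and high *Rn45s* share of control libraries 1 and 2 go with the control group here and in the next comparison. Exon length went with the log2 fold change here too, as given above, and *Bach2*, *Ikzf3* and *Ikzf1* are long genes. With the length and GC trend removed, none of the 10 factors was called. Against control library 3 alone, *Ikzf3* was at 0.35 and *Ikzf1* at 0.33 in CKO IgMhi over control cells, and *Pax5* at -0.67, *Ebf1* at -0.57, *Ikzf3* at -0.41 and *Ikzf1* at -0.35 in IgMneg over control cells. Control and CKO mice were bred separately, so deletion and breeding cannot be told apart here.

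The third comparison, IgMneg B-1a cells of CKO mice over control IgMhi B-1a cells, shares its libraries with the other comparisons and is no independent check of them. Sort, deletion and breeding all differ between its groups, so they cannot be told apart here. It called 0 of 10 factors (limma, against 0.301% of all genes; 0 also with edgeR and DESeq2). At an unadjusted p under 0.05, 4 were lower in IgMneg cells, against 7.85% of all genes, and these were *Pax5*, *Ebf1*, *Ikzf3* and *Ikzf1*. Their log2 fold changes were -0.44 for *Pax5* (limma adjusted p = 0.173), -0.41 for *Ebf1* (0.184), -0.32 for *Ikzf3* (0.234) and -0.31 for *Ikzf1* (0.251). In each case the 3 IgMneg libraries lay below the 3 controls. They also did for *Bcl6* and *Pou2af1*, which did not reach an unadjusted p under 0.05. How many of all genes are separated in this way was not computed, so these separations are a description. *Bach2* was at 0.09 (95% interval -0.28 to 0.46) and *Irf8* at 0.24 (95% interval -0.11 to 0.59). Set side by side, the group means of *Pax5* and *Ebf1* differed mostly between IgMneg cells and both IgMhi groups. Those of *Bach2* differed mostly between CKO IgMhi cells and both other groups, and those of *Ikzf1* and *Ikzf3* in steps from IgMneg to control to CKO IgMhi cells. None of these genes was called against controls in the fit of all libraries. For *Bach2* the order rests on shallow controls 1 and 2, since control library 3, at 299.5 normalized counts, lay between the IgMneg and CKO IgMhi libraries.

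Some of the factors varied together from library to library and others did not. Over the 8 libraries and 45 pairs of factors, Pearson r on the log2 scale ran from -0.25 (*Irf8* and *Pou2af1*) to 0.98, with a median of 0.49, and 5 pairs were negative. *Irf8* had r of 0.01 with *Pax5*, -0.06 with *Ebf1* and -0.18 with *Bcl6*. The 3 pairs above 0.9 are given as the highest of the 45, and in these *Ikzf1* and *Ikzf3* had a Pearson r of 0.98 (Spearman rho 0.88), *Ebf1* and *Bcl6* 0.96 (0.88) and *Pax5* and *Ebf1* 0.93 (0.90) on the log2 scale. With group means removed, r was 0.18 for *Ikzf1* and *Ikzf3*, 0.93 for *Ebf1* and *Bcl6* and 0.64 for *Pax5* and *Ebf1*, while the 45 pairs ran from -0.64 (*Irf8* and *Ikzf1*) to 0.93 with a median of 0.30. Among 128 other genes of the lists used here, the 1 most like each factor was *Irf4* for *Pax5* (r 0.97), *E2f2* for *Ebf1* (0.98), *Tcf3*, which encodes E2A proteins, for *Spib* (0.89), *Vpreb3* for *Spi1* (0.82), *Tnfrsf13c*, which encodes the BAFF receptor, for *Irf8* (0.77), *Foxo1* for *Bach2* (0.97), *Ebf1* for *Bcl6* (0.96), *Ikzf3* for *Ikzf1* (0.98), *Ncor1* for *Ikzf3* (0.98) and *Klf3* for *Pou2af1* (0.86). These are descriptions over 8 libraries that share groups, mice and depth.

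The partners and corepressors through which these factors act were examined as a list of 30 genes, 28 of them measured. Of these, 7 were lower in IgMneg than in CKO IgMhi B-1a cells and 0 higher, with a median log2 fold change of -0.42 against 0.01 over all genes. *Ncor1*, which encodes a corepressor bound by BCL6, had a log2 fold change of -0.84 (limma adjusted p = 0.00342). *Crebbp*, an acetyltransferase gene, was at -1.11 (limma adjusted p = 0.00183). *Pou2f2*, which encodes OCT2, the partner of OBF-1, was at -1.39 (limma adjusted p = 0.00604), with 74.7, 101 and 90.0 normalized counts in IgMneg, 281 and 191 in CKO IgMhi, and 162, 100.5 and 181 in control libraries. OBF-1 itself (*Pou2af1*) was not called, as given above. In neither other comparison was any of the 28 called by limma. In CKO IgMhi over control cells 10 had an unadjusted p under 0.05, against 9.62% of all genes in either direction, and edgeR and DESeq2 called 1 each. In IgMneg over control cells 9 did, against 15.4% of all genes, and both tools called 0. The same shares of all genes are the background of the counts at an unadjusted p in the lists that follow. The most abundant, *Ets1* and *Chd4*, had log2 fold changes of -0.26 and 0.37 in CKO IgMhi over control cells and -0.20 and -0.11 in IgMneg over control cells.

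Of 35 other transcription factors of B cells, all measured, 6 were lower and 0 higher in IgMneg than in CKO IgMhi cells, with a median log2 fold change of -0.27. *Klf13* (-1.21, limma adjusted p = 0.00137), *Foxo1* (-1.24, 0.00274), *Zbtb7a* (-1.07, 0.00285) and *Nfatc1* (-0.97, 0.00352) had the smallest p. *Foxo1*, which works with EBF1 in early B cells, had 229.9, 255 and 233 normalized counts in IgMneg, 580.3 and 552 in CKO IgMhi, and 216, 225 and 368 in control libraries, a pattern like that of *Bach2*. *Foxo1* was also the only gene of this list called in CKO IgMhi over control cells (1.11, limma adjusted p = 0.0386), where *Nfkb1* and *Foxp1*, the most abundant, were at 0.01 and 0.00182. In IgMneg over control cells limma called 0 of 35 (12 at an unadjusted p under 0.05), edgeR 0 and DESeq2 2, and *Nfkb1* and *Foxp1* were at 0.28 and -0.45.

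**Figure D4:**
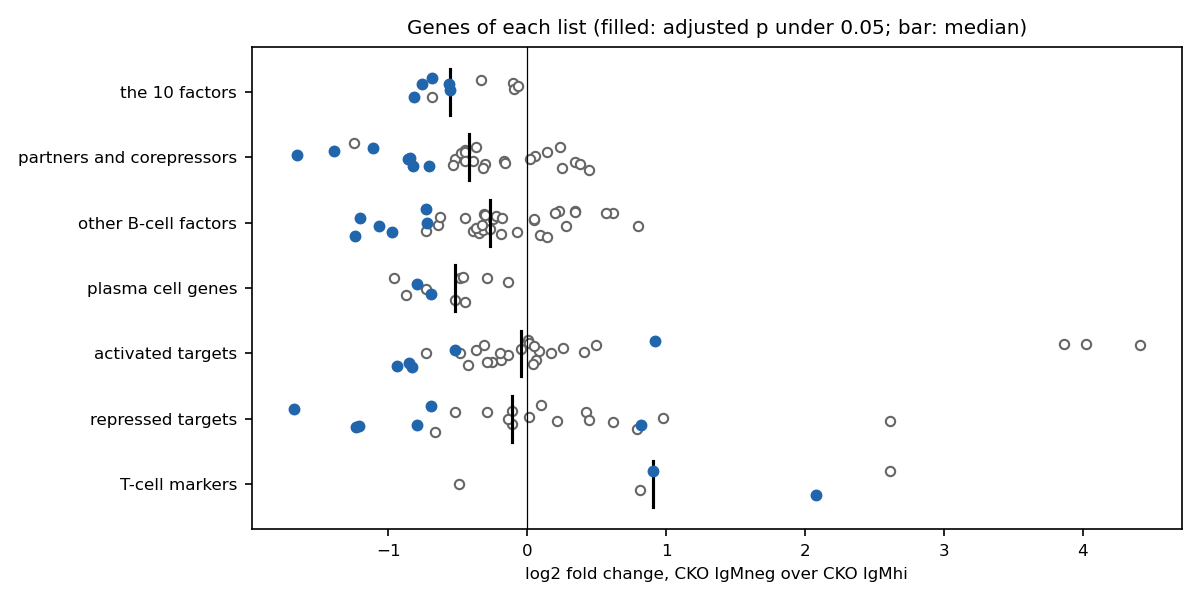
Log2 fold change of IgMneg over CKO IgMhi B-1a cells (x axis) for each measured gene of the lists (rows), filled where the adjusted p was under 0.05, with the median as a bar. The 10 factors have a median of -0.56 and the activated targets one of -0.04; the 3 open points near 4 among the targets are *Igll1*, *Rag1* and *Vpreb1*.

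Genes that these factors are known to activate did not move together. Of 29 measured of 30, 4 were lower and 1 higher in IgMneg than in CKO IgMhi cells, with a median log2 fold change of -0.04. *Cd79a*, a B-cell receptor subunit gene activated by PAX5 and EBF1, was lower, with 1587, 1544 and 2132 normalized counts in IgMneg, 3031 and 3127 in CKO IgMhi, and 2812, 2552 and 2922 in control libraries (log2 fold change -0.83 over CKO IgMhi, limma adjusted p = 0.00663). *Btk*, a kinase gene activated by PU.1 and SPI-B, was at -0.85 (limma adjusted p = 0.00974), and *Cr2*, which encodes CD21, a marker used in the sort, at -0.94 (0.0112). *Cd72*, a target of PAX5 that encodes an inhibitory coreceptor, was higher, at 0.92 (limma adjusted p = 0.00384), with 2114, 2163 and 2479 normalized counts in IgMneg, 1134 and 1241 in CKO IgMhi, and 1163, 1556 and 1603 in control libraries. In CKO IgMhi over control cells limma called 0 of 29 (2 at an unadjusted p under 0.05), edgeR 0 and DESeq2 1. In IgMneg over control cells limma called *Cr2* alone, at -1.31 in IgMneg over control cells (limma adjusted p = 0.00239), and *Ms4a1* and *Cd79b*, the most abundant, were at -0.14 and -0.19 in CKO IgMhi over control cells and -0.09 and -0.02 in IgMneg over control cells.

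Genes known to be repressed by PAX5, BCL6, BACH2 or Ikaros were as mixed. Of 24, 22 were in the table and 21 tested, and 5 were lower and 1 higher in IgMneg than in CKO IgMhi cells, with a median log2 fold change of -0.11. *Ccnd2*, which encodes cyclin D2 and is repressed by BCL6, had 426, 546 and 567 normalized counts in IgMneg, 1289 and 2065 in CKO IgMhi, and 516, 627 and 545 in control libraries. Both CKO IgMhi libraries lay above all others, and the gene was called in IgMneg over CKO IgMhi (-1.68, limma adjusted p = 0.000397) and in CKO IgMhi over control cells (1.54, limma adjusted p = 0.00185). *Itgal* (-1.23, limma adjusted p = 0.00419) and *Myc* (-1.21, 0.0156) were lower, and *Emb*, which encodes embigin, was higher (0.82, 0.0105). In IgMneg over control cells limma called 0 of 21 (9 at an unadjusted p under 0.05), edgeR 0 and DESeq2 3, with *Xbp1* at -0.76 and *Ccnd2* at -0.14. *Xbp1*, a driver of secretion in plasma cells, was at -0.47 in CKO IgMhi over control cells. It had 715, 737 and 1094 normalized counts in IgMneg, 1225 and 842 in CKO IgMhi, and 2285, 1556 and 784 in control libraries 1, 2 and 3. Both differences rest on the shallow controls 1 and 2, since control library 3 lay within the IgMneg range and below both CKO IgMhi libraries.

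Plasma cell genes, some of which BACH2, BCL6 and PAX5 repress, were examined as a list of 11, all measured. Of these, 2 were lower and 0 higher in IgMneg than in CKO IgMhi cells, and all 11 log2 fold changes were negative, with a median of -0.52. *Prdm1*, which encodes BLIMP-1, had 109, 135 and 111 normalized counts in IgMneg, 210.5 and 199 in CKO IgMhi, and 200.1, 249 and 199.8 in control libraries (log2 fold change -0.79 over CKO IgMhi, limma adjusted p = 0.0251). *Zbtb20* was at -0.69 (limma adjusted p = 0.0236). In CKO IgMhi over control cells limma called 0 (1 at an unadjusted p under 0.05), as did edgeR and DESeq2, and in IgMneg over control cells limma called 0 (10 at an unadjusted p under 0.05), edgeR 0 and DESeq2 1. The most abundant, *Igj* and *Irf4*, were at -0.62 and 0.11 in CKO IgMhi over control cells and at -1.50 and -0.33 in IgMneg over control cells. *Igj*, which encodes the J chain of secreted IgM, had 4243, 3100 and 6647 normalized counts in IgMneg, 9941 and 6631 in CKO IgMhi, and 22010, 18170 and 4898 in control libraries 1, 2 and 3. The shallow controls 1 and 2 thus stood above all other libraries, while the deepest control lay within the IgMneg range and below both CKO IgMhi libraries, where the direction of CKO IgMhi over control turns.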

How the data were processed

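RNA of sorted splenic B-1a cells (8 libraries) was sequenced after removal of ribosomal RNA. The authors aligned reads to mm9 with TopHat2 2.0.13, assigned them to genes by union counting in HTSeq 0.6.0, and applied DESeq2 in R 3.3.1. The deposited values are a signal, the reads of a gene that the authors divided by 1 size factor per library. Whole reads, within 0.01 read, were recovered for 100% of values.

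limma 3.58.1 (R 4.3.3, with trend) was run on normalized counts, plus 1 and log2 transformed, of all 8 libraries, with 3 group means, a filter of 10 in at least 2 libraries, two-sided tests and Benjamini-Hochberg adjustment over 10627 genes at 0.05. Fold changes are on this scale, which understates those of low genes. It was checked on simulated data. edgeR 4.0.16 and DESeq2 1.42.0 on recovered reads, other scalings, pseudocounts and filters, blocks, removal of the length and GC trend (splines of 4 degrees of freedom) and each library left out were alternatives. 3 alternatives were chosen after the data were seen.

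The members and lists were chosen with earlier results of these data known. Named genes are the 10 factors, up to 4 called genes of smallest p per list and comparison (else the 2 most abundant), the gene most like each factor, *Ctla4* and markers. *Dntt*, *Igll1*, *Vpreb1*, *Vpreb3*, *Rag1*, *Cd3g*, *Prdm1*, *Igj* and *Xbp1* in their per-library values, *Alas2* and *Mki67* were added after their values were seen. Exon lengths are from GENCODE vM1, matched for 97.96% of genes; 17 genes had names turned into dates. Results for some genes of the lists are not reported here. *Pax5* and *Bach2* share 125 and 537 exon bases with antisense transcripts not used here, and whether counting used strand is not given in the sources used here, nor are sex or pooling of mice. CKO numbers 2 and 3 occur in both sorts and were taken as the mouse, which no label states. Deviations of same-numbered libraries from their group means correlated at 0.26 and 0.20. The deviations of the 2 CKO IgMhi libraries mirror each other, so these values are tied and are no separate checks of the pairing. Replicates differed by more than counting error (chi-square per gene 9.22 to 118), and p-values measure the spread between these libraries.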

Additional observations from a re-analysis of the deposited data

How the results depend on the processing

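In IgMneg over CKO IgMhi cells, the number of factors called was 5, against 2 with total scaling, 0 in limma without trend, 2 with the length and GC trend removed, and 0 with both IgMneg libraries that hold *Igll1* reads left out. Leaving out 1 library at a time gave 0 to 5. With the mouse as a block the number was 5 with the number as a fixed term, 5 with the CKO mouse as a random block and 5 with the CKO libraries alone, so pairing changed none of the 5 calls. In CKO IgMhi over control cells the number was 0, against 1 with DESeq2 and 0 to 1 with 1 library left out, and in IgMneg over control cells 0 in all 25 settings. Fewer libraries enter the leave-out fits; otherwise the cause was not tested.

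Signs turned only for values that passed no test. In CKO IgMhi over control cells these were *Spib* (0.13 with total scaling, which moved the median of all genes to 0.15; 0.0676 with the fixed block, 0.0105 with the random block, 0.0129 with the length and GC trend removed), *Spi1* (0.12 with total scaling, 0.00958 without the length trend), *Pou2af1* (0.0121 with total scaling) and *Bcl6* (-0.054 without the length trend). With both shallow control libraries left out, *Pax5* was at -0.11, *Ebf1* at -0.0145 and *Bcl6* at -0.27. Leaving out 1 library gave -0.14 to 0.0568 for *Spib*, -0.28 to 0.23 for *Spi1*, -0.18 to 0.33 for *Bcl6* and -0.0136 to 0.24 for *Pax5*. In IgMneg over CKO IgMhi cells *Irf8* was at 0.18 without the length trend and 0.0735 in the block fit of CKO libraries alone, with -0.27 to 0.0735 when 1 library was left out. In IgMneg over control cells *Bach2* was at -0.30 with both shallow controls left out and from -0.0311 to 0.28 with 1 library left out. Depth limits *Bcl6* most, with 7 reads in control library 2.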

Other observations

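*Mki67*, a marker of cycling cells, had 326, 253 and 452 normalized counts in IgMneg, 763 and 994 in CKO IgMhi, and 347, 618 and 653 in control libraries, and was lower in IgMneg than in CKO IgMhi cells (log2 fold change -1.38, limma adjusted p = 0.00522). *Alas2*, an erythroid gene, had 0.97, 3.18 and 120.7 normalized counts in IgMneg libraries 1, 2 and 3, 4.53 and 8.86 in CKO IgMhi libraries, and 0, 4.79 and 8.38 in control libraries, so it stood apart in IgMneg library 3.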
